A study of Mus musculus with 13 samples.

Results

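The genes of major histocompatibility complex (MHC) class I and II described here are 10 genes chosen by symbol from the 35967 gene symbols in the expression table. They are the class I heavy chains *H2-K1* and *H2-D1* with their partner *B2m*, the class I peptide loading genes *Tap1* and *Tapbp*, the class II chains *H2-Aa*, *H2-Ab1* and *H2-Eb1*, the invariant chain *Cd74*, and *Ciita*. All 10 had a row in the table, and 9 passed the filter on low values (4 or more of 13 libraries with a TPM of 1 or higher). *Ciita* did not pass, and its values are given apart. TPM is a transcript level corrected for transcript length and rescaled to a fixed total per library.

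RNA was sequenced from glomeruli, the filtering units of the kidney, of wildtype Balb/c mice, 1 library per mouse. Control mice (n = 5) received 2.0 mg of preimmune rabbit IgG intraperitoneally, and MN mice received 2.0 mg of rabbit IgG against THSD7A, a podocyte membrane protein, and were studied at day 1 (n = 4) or day 5 (n = 4). The injection of anti-THSD7A IgG gives a passive model of membranous nephropathy (MN), in which antibody binds to podocytes. All groups thus carried a foreign IgG, only male mice were used for this model per the study's methods, and control mice of both days formed a single group whose days are not given per mouse. Per the study's methods, glomeruli were isolated with magnetic beads perfused through the renal artery.

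MHC class I molecules display peptides from inside the cell to CD8+ T cells and are made by most nucleated cells, endothelium and podocytes included. A heavy chain (*H2-K1* or *H2-D1* here) folds with beta-2 microglobulin (*B2m*) and receives peptides that the TAP transporter (*Tap1*) pumps into the endoplasmic reticulum, with tapasin (*Tapbp*) as the bridge between both. Class II molecules present peptides of ingested proteins to CD4+ T cells and are typical of dendritic cells, macrophages and B cells. Their alpha and beta chains pair in the endoplasmic reticulum with the invariant chain (*Cd74*), and *Ciita* is the coactivator that class II transcription depends on. Interferon gamma raises both sets of genes in many cell types.

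Of the 10 genes, 7 lie in the MHC on chromosome 17 of GRCm39 (GENCODE vM39). *H2-K1* spans chr17:34214987-34219321 on the minus strand and *H2-D1* spans chr17:35481691-35486475 on the plus strand. *Tapbp* (chr17:34134873-34148267, plus strand) and *Tap1* (chr17:34405996-34416199, plus strand) lie near *H2-K1*, followed by *H2-Ab1* (chr17:34476663-34488393, plus strand), *H2-Aa* (chr17:34493404-34506798, minus strand) and *H2-Eb1* (chr17:34504236-34535648, plus strand). The other 3 lie on other chromosomes, *B2m* at chr2:121977957-121983594 and *Ciita* at chr16:10297923-10347694, both on the plus strand, and *Cd74* as given with its values.

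Promoter sequences are shown for a pair of class I and a pair of class II genes, since genes of a class are known to share regulatory motifs there. They are 300-base windows from RefSeq (table of GRCm38.p6), placed here on GRCm39 by exact match and printed from 5′ to 3′ on the strand of the gene. The windows follow RefSeq's starts, and that of *H2-Eb1* lies inside the longer span GENCODE gives this gene. Of the 10 genes, 7 had a window, and *H2-Ab1*, *Cd74* and *Ciita* had none. Capitals mark matches, on either strand, to 5 motifs whose letters were written with these promoters in view. They are the NF-kB site of class I enhancer A (GGGATTCCC), the class I interferon response sequence (TTTCACTTC), the inverted CCAAT or Y box (CTGATTGG, which reads CCAATCAG on the other strand), the X1 box bound by the RFX complex (AGCAACNGA) and the core of the X2 box (TGACG). The X2 core reads CGTCA on the other strand, and its matches on the 2 strands overlap in the *H2-Aa* window.
H2-K1 (chr17:34219272-34219571, minus strand): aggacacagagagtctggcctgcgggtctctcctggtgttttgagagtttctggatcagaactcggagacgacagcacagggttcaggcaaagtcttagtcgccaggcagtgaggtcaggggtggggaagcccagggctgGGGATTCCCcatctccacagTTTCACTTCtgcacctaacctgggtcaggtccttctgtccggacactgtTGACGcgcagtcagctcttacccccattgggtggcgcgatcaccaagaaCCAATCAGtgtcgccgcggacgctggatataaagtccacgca
H2-D1 (chr17:35481820-35482119, plus strand): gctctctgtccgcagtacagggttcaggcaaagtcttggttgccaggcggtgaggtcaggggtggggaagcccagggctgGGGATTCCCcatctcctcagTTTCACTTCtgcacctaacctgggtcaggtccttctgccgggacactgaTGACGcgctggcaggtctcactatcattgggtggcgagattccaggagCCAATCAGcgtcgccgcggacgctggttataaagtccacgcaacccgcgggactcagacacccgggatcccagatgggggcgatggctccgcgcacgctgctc
H2-Aa (chr17:34506748-34507047, minus strand): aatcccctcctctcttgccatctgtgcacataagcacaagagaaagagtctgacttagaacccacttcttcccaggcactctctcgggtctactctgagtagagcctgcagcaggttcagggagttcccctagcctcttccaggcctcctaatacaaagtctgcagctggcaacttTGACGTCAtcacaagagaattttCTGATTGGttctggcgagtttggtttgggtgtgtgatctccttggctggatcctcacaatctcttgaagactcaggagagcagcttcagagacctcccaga
H2-Eb1 (chr17:34524591-34524890, plus strand): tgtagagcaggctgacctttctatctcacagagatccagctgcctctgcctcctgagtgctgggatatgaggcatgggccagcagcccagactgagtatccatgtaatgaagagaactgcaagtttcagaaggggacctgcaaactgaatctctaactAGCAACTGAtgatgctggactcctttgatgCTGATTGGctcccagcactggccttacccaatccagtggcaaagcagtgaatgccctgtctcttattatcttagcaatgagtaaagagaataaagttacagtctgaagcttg

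The *H2-K1* and *H2-D1* windows both held the NF-kB site followed by the interferon response sequence. Among the windows of the 10683 tested genes that had one, 0.44% held this NF-kB site and 0.58% this interferon response sequence. The *H2-Aa* and *H2-Eb1* windows both held the Y box in the forward direction, which 6.64% of all genes' windows held on either strand. Of the 7 windows, the X1 letters were found only in that of *H2-Eb1*, against 1.28% of all windows. The X2 core was in 34.1% of all windows. The letters CTGATTGG were also found, on the opposite strand, in those of *H2-K1*, *H2-D1* and *Tap1*, and the X2 core in those of *H2-K1*, *H2-D1*, *B2m*, *Tap1* and *H2-Aa*. In the class I windows this match is to the letters only and need not be the Y box. A match describes the letters of the reference and is no evidence of binding in these mice.

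*B2m* had the highest level, with a mean of 1438 TPM over the 13 libraries, above 99.6% of the tested genes. *H2-D1* (370 TPM), *H2-K1* (256 TPM) and *Tapbp* (149 TPM) followed, each above the next in 13 of 13 libraries. *Cd74* (31.6 TPM) was the highest of the class II genes and lay above *H2-Ab1* in 13 of 13 libraries. *H2-Ab1* (18.7 TPM), *Tap1* (16.5 TPM), *H2-Aa* (14.1 TPM) and *H2-Eb1* (12.5 TPM) were neighbours whose order changed between libraries, with *H2-Ab1* above *Tap1* in 10, *Tap1* above *H2-Aa* in 11 and *H2-Aa* above *H2-Eb1* in 10 of 13. *Ciita* (0.683 TPM) lay below *H2-Eb1* in 13 of 13 libraries. It had failed the filter that all tested genes passed, so no rank among them is given for it. The class II chains were thus far below the class I chains in whole glomeruli, while *Tap1* lay among the class II genes. There were 17.1 to 28.3 times as many TPM of *H2-D1* as of *H2-Ab1* in the MN libraries and 19.0 to 22.2 times in the control libraries.

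**Figure D1:**
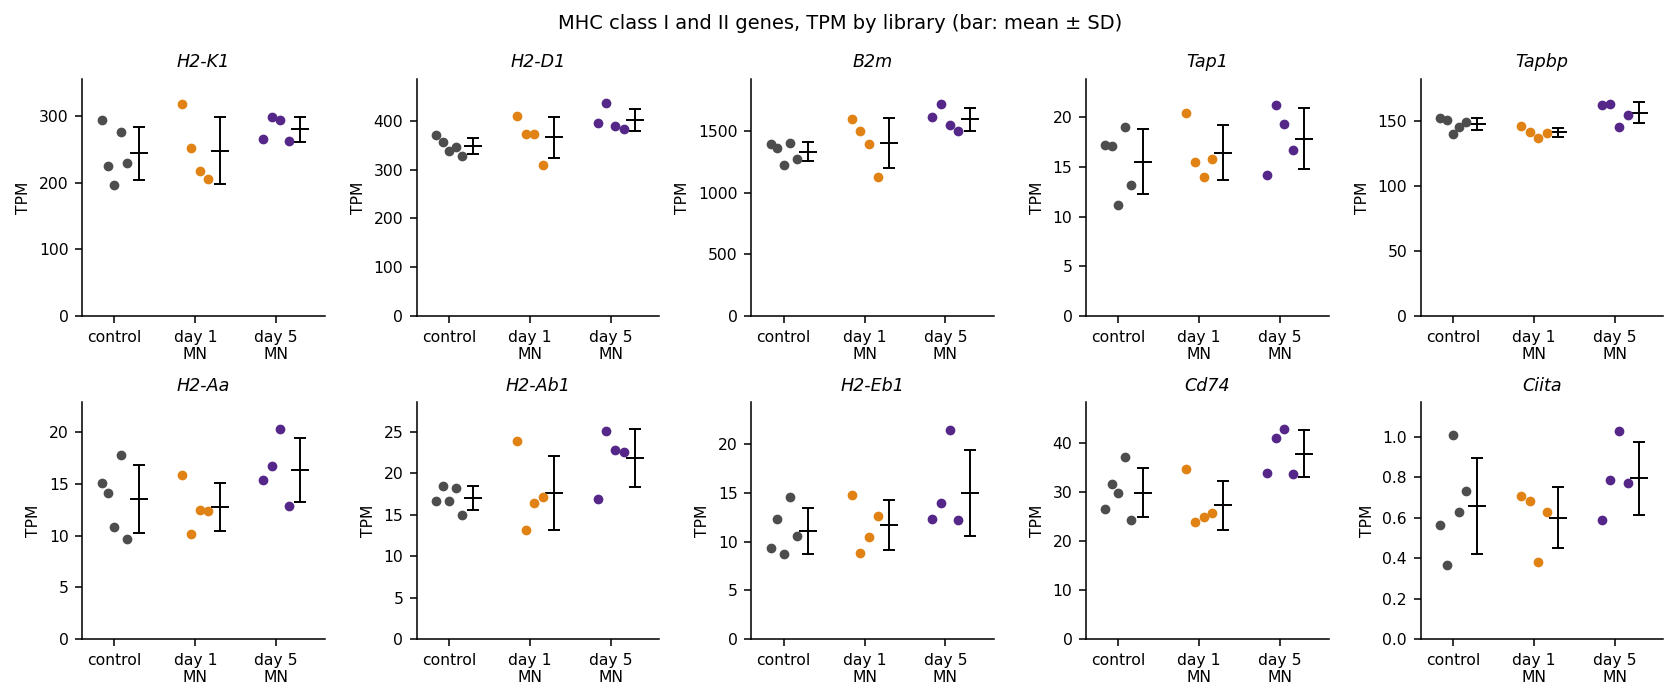
Deposited TPM of each MHC gene (vertical axes, starting at 0) in 5 control, 4 day 1 MN and 4 day 5 MN libraries; each point is 1 library and bars give the mean ± SD. The day 5 MN points of *H2-D1* and *B2m* lie above all control points, and the other genes overlap between these groups.

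Libraries differed in cell type markers as well. Podocyte genes were abundant throughout, with a mean TPM of 3026 for *Podxl* (podocalyxin) in control libraries, and endothelial markers were likewise high (*Emcn*, 1313 TPM). Summed TPM of 9 tubule markers ran from 810 to 1376 at day 1, against 409 to 1025 in control libraries and 582 to 731 at day 5. Summed TPM of 9 endothelial markers ran from 5958 to 6342 at day 5, against 5007 to 6350 in control libraries. Summed TPM of 9 podocyte markers ran from 7464 to 7835 at day 5, against 6822 to 9236 in control libraries. The targeted antigen's own transcript, *Thsd7a*, fell at day 5 by 0.79 on the log2 scale (limma, adjusted p = 0.0112). In whole glomeruli, a change in the number of cells of a type and a change in RNA per cell cannot be told apart. The table keeps no read depth, so the depth of the libraries was unknown and no counting error could be given.

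Comparisons with control asked whether the MHC genes differed when injury began (day 1) or was overt (day 5). They used 1 limma fit over all 14322 tested genes, with p-values adjusted within each contrast. Differences are on the log2(scaled TPM + 0.5) scale, where scaled TPM are TPM divided by a factor per library, and a gene was called at an adjusted p under 0.05 and an absolute difference above 0.5. The median difference of all tested genes was -0.0029 at day 1 and -0.0032 at day 5 against control, and 0.0049 between the days. Both comparisons with control share the same 5 control libraries.

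At day 1, 0 of the 9 tested MHC genes were called by limma, where 0.0908% of all tested genes were. At an unadjusted p under 0.05 the count was also 0 of 9, against 12.6% of all genes. Differences ran from -0.08 (*Cd74*) to 0.14 (*Tap1*), with adjusted p between 0.568 and 0.977, and 6 of 9 were above 0 where 49.2% of all genes were. The median was 0.07. For 0 of 9 genes did the libraries of both groups not overlap, against 4.22% of all genes. Without day 1 replicate 1 the difference turned below 0 for *H2-K1* (-0.06), *H2-Ab1* (-0.08) and *H2-Eb1* (-0.003). In the same libraries 9 of 9 tubule markers had differences above 0 (median 0.74), with 0 called and 7 at an unadjusted p under 0.05, and their part in the MHC values was not tested.

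At day 5, 9 of 9 MHC genes had differences above 0 (49.3% of all genes), but 0 of 9 were called (3.21% of all genes). At an unadjusted p under 0.05 there were 5 of 9 (*H2-D1*, *B2m*, *H2-Ab1*, *H2-Eb1* and *Cd74*), where 11.0% of all genes were higher at that level. The class I genes had a median difference of 0.24 (range 0.12 to 0.29), which is 1.08 to 1.23 times the control level. The 4 class II genes had a median of 0.38 (range 0.31 to 0.43), or 1.24 to 1.35 times. Libraries did not overlap for 2 of 9 (*H2-D1* and *B2m*), where 5.07% of all genes were higher without overlap. The same glomeruli had endothelial marker differences of a like direction, 9 of 9 above 0 with a median of 0.21, and podocyte marker differences with a median of -0.29, and the part of either in the MHC values was not tested.

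**Figure D2:**
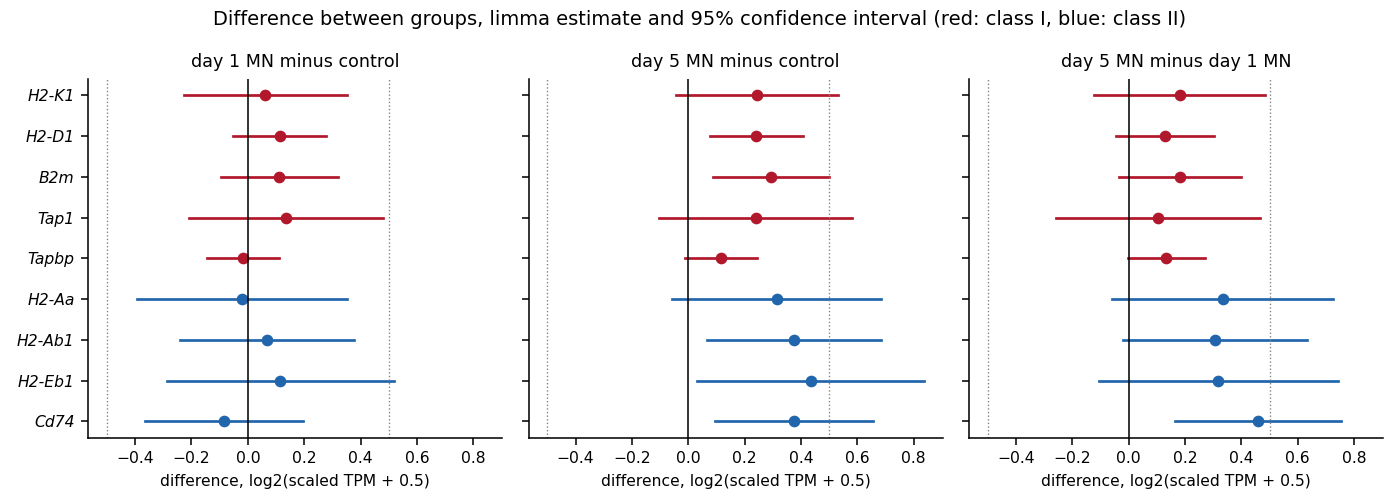
Differences between groups on the log2(scaled TPM + 0.5) scale (horizontal axes) for the 9 tested MHC genes, as limma estimates (points) with 95% confidence intervals (lines), class I in red and class II in blue; dotted lines mark -0.5 and 0.5. All 9 estimates at day 5 against control lie right of 0, between 0.12 and 0.43, and none of the adjusted p-values was under 0.05.

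Of the class I molecule itself, *B2m*, the light chain shared by all heavy chains, had 1399, 1368, 1227, 1406 and 1274 TPM in the control libraries (replicates 1 to 5), 1600, 1505, 1394 and 1129 at day 1 and 1616, 1721, 1547 and 1503 at day 5 (replicates 1 to 4). The 4 day 5 libraries lay above the highest control library, whereas the day 1 libraries held values above and below all control libraries. The difference was 0.29 at day 5 (SE 0.096, 95% confidence interval 0.09 to 0.50, limma adjusted p = 0.0942) and 0.11 at day 1 (SE 0.096, adjusted p = 0.661).

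*H2-D1*, the heavy chain of the D locus, had 370, 356, 339, 347 and 328 TPM in control libraries, 410, 373, 373 and 310 at day 1 and 397, 436, 390 and 385 at day 5. As for *B2m*, the lowest day 5 library was above the highest control library, and day 1 replicate 4 was the lowest of all 13. The difference was 0.24 at day 5 (SE 0.076, 95% confidence interval 0.08 to 0.41, limma adjusted p = 0.0856) and 0.11 at day 1 (adjusted p = 0.568).

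*H2-K1*, the heavy chain of the K locus, had 294, 225, 197, 276 and 229 TPM in control libraries, 317, 251, 217 and 206 at day 1 and 265, 298, 293 and 262 at day 5. The day 5 libraries lay close together, 3 of 4 in the upper part of the control range and replicate 2 just above it, and the groups overlapped. The difference at day 5 was 0.24, the same to 2 decimals as for *H2-D1*, but with an SE of 0.13 (95% confidence interval -0.04 to 0.53, limma adjusted p = 0.340).

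The ratio of *B2m* to the sum of both heavy chains stayed narrow, from 2.11 to 2.35 in control, 2.19 to 2.41 at day 1 and 2.26 to 2.44 at day 5 libraries. The ratio of *H2-D1* to *H2-K1* ran from 1.26 to 1.72 in control and from 1.33 to 1.50 at day 5 libraries. The day 5 values of both ratios overlapped with the control values.

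The peptide loading genes showed smaller or less certain differences. *Tapbp* had TPM of 140 to 153 in control (median 150), 137 to 146 at day 1 (median 141) and 146 to 163 at day 5 (median 159). It varied little between libraries, with coefficients of variation of 2.57% to 5.20% within groups, and its difference at day 5 was 0.12 (SE 0.060, limma adjusted p = 0.304). *Tap1* had TPM of 11.2 to 19.1 in control (median 17.1), 14.0 to 20.5 at day 1 (median 15.7) and 14.2 to 21.2 at day 5 (median 18.0), with a difference of 0.24 (SE 0.16, adjusted p = 0.453). Both genes overlapped between all groups.

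Class I genes resemble each other and the reference differs from the strain studied, so reads can be shared. Of the 31-base words (the word length the quantifier uses by default) in the GENCODE canonical transcripts, 23.5% of *H2-K1* and 27.6% of *H2-D1* also occurred in transcripts of other protein-coding genes, foremost in each other, and 12.3% of *Tap1* in others, mainly *Psmb9* next to it. For *B2m* and *H2-Aa* the share was 0%, and for *Tapbp*, *H2-Ab1*, *H2-Eb1*, *Cd74* and *Ciita* it was between 0.592% and 4.14%. Balb/c mice carry the d haplotype of the MHC and the reference is of the b haplotype, so reads of polymorphic exons may be lost or credited to a related gene in all 13 libraries, and how far this moved the levels was not tested.

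The class II genes had lower levels than the class I chains. *Cd74*, the invariant chain (chr18:60936899-60945731, plus strand), had 26.5, 31.8, 30.0, 37.3 and 24.3 TPM in control libraries, 34.8, 23.9, 25.0 and 25.8 at day 1 and 34.0, 41.1, 43.0 and 33.7 at day 5. Of the 4 day 5 libraries, all lay above the control libraries except control replicate 4, and at day 1 replicate 1 stood apart from the other 3. The difference was 0.38 at day 5 (SE 0.13, 95% confidence interval 0.10 to 0.66, limma adjusted p = 0.115) and -0.08 at day 1 (adjusted p = 0.839).

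*H2-Ab1*, the beta chain of the I-A molecule, had 16.7, 18.4, 16.6, 18.2 and 15.0 TPM in control libraries, 23.9, 13.1, 16.4 and 17.1 at day 1 and 16.9, 25.1, 22.8 and 22.6 at day 5. Day 5 replicate 1 lay within the control range and the other 3 above it. The difference at day 5 was 0.38 (SE 0.14, 95% confidence interval 0.07 to 0.68, limma adjusted p = 0.155).

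*H2-Aa*, the alpha chain that pairs with it, had 15.0, 14.1, 10.8, 17.8 and 9.66 TPM in control libraries, 15.8, 10.2, 12.5 and 12.4 at day 1 and 15.4, 16.7, 20.2 and 12.9 at day 5. The groups overlapped, and the difference at day 5 was 0.31 (SE 0.17, limma adjusted p = 0.342). The TPM ratio of *H2-Ab1* to *H2-Aa* had a median of 1.31 in control and 1.32 at day 5 libraries.

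*H2-Eb1*, the beta chain of the I-E molecule, had 9.38, 12.3, 8.70, 14.5 and 10.5 TPM in control libraries, 14.8, 8.88, 10.4 and 12.6 at day 1 and 12.3, 13.9, 21.4 and 12.2 at day 5. Its estimate at day 5, 0.43, was the highest of the 9 genes, but 3 of 4 day 5 libraries lay within the control range and replicate 3 alone above it (SE 0.19, 95% confidence interval 0.03 to 0.84, limma adjusted p = 0.212). Without day 5 replicate 3 the difference was 0.28, the lowest value among the 13 fits that left out 1 library each.

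*Ciita* had 0.56, 0.37, 1.01, 0.63 and 0.73 TPM in control libraries, 0.71, 0.68, 0.38 and 0.63 at day 1 and 0.59, 0.79, 1.03 and 0.77 at day 5. The groups overlapped. Its difference was 0.19 at day 5 (exact two-sided permutation test, p = 0.278, 126 splits, smallest possible p = 0.00794) and -0.04 at day 1 (p = 0.873 by the same exact test).

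The direct comparison of both MN groups does not use the control libraries for its means. Here too 9 of 9 MHC genes had differences above 0 (51.3% of all genes), 0 of 9 were called (1.81% of all genes), and 1 of 9, *Cd74*, had an unadjusted p under 0.05 (7.83% of all genes were higher at that level). For 0 of 9 genes did the day 5 libraries all lie above the day 1 libraries, against 6.12% of all genes. In the same comparison 0 of 9 tubule markers had differences above 0 (median -0.77, 7 of 9 at an unadjusted p under 0.05 and 1 called lower). By contrast, 9 of 9 endothelial markers had differences above 0 (median 0.18). The part of either in the MHC values was not tested. The estimate for *Cd74* was 0.46 (SE 0.14, 95% confidence interval 0.16 to 0.75, limma adjusted p = 0.112). Day 1 replicate 1, at 34.8 TPM, lay among the day 5 values (33.7 to 43.0), and without that library the difference was 0.58 with an adjusted p of 0.0315. The other class II genes had differences of 0.31 to 0.33 and the class I genes of 0.10 to 0.18, with adjusted p between 0.330 and 0.837. *Ciita* had a difference of 0.23 (exact two-sided permutation test, p = 0.171, 70 splits, smallest possible p = 0.0286).

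**Figure D3:**
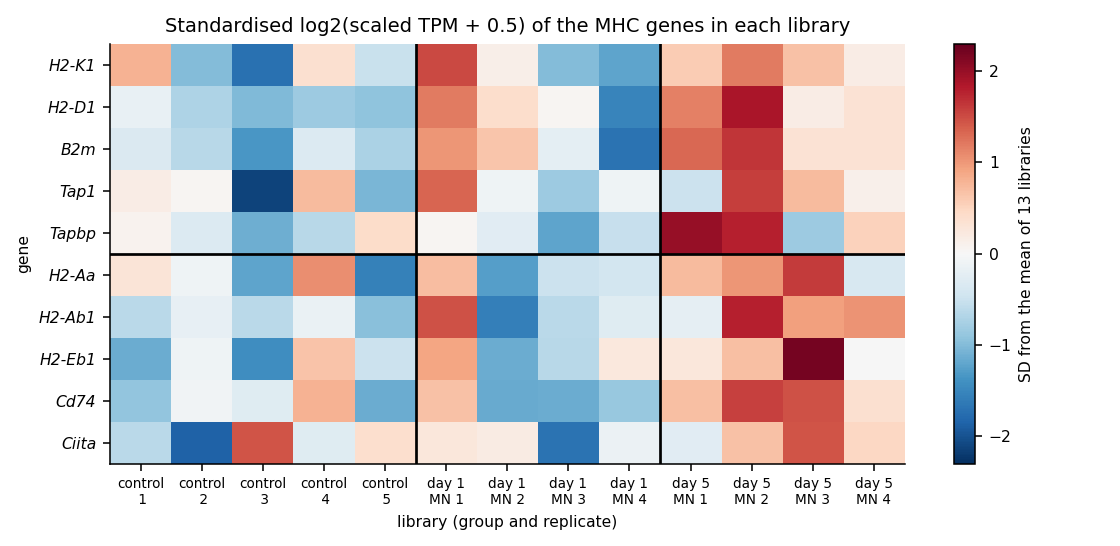
Level of each MHC gene (rows) in each library (columns), as log2(scaled TPM + 0.5) in SD from the mean of the 13 libraries; black lines separate groups and classes. Day 5 MN replicate 2 is high in nearly all rows, day 5 MN replicate 3 mainly in class II rows, and day 1 MN replicate 1 is the only day 1 library above the mean in nearly all rows.

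The genes of a class tended to be high or low in the same libraries. As a description of likeness, Pearson's r over the 13 libraries had a median of 0.80 among the 6 pairs of tested class II genes (0.68 to 0.83), 0.67 among the 10 pairs of class I genes (0.33 to 0.97) and 0.54 among the 20 pairs across classes (0.15 to 0.75). With each gene's group means removed, the medians were 0.74, 0.54 and 0.32. The closest pair was *H2-D1* and *B2m* (r = 0.97). The genes of a library share its scaling and its cell makeup, which differed between libraries, so these values are given with no test.

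Libraries that were high in one class were not always high in the other. The mean standing of the class I genes, in SD from the mean of all libraries, was 1.62 in day 5 replicate 2 and 0.21 in replicate 3, while for the class II genes it was 1.27 and 1.56. Day 1 replicate 2 stood at 0.17 for class I and at -1.29 for class II, the lowest class II value of all. Day 1 replicate 1 stood high in both (1.02 and 0.94), and control replicate 3 low in both (-1.46 and -0.89).

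Genes that followed the class II mean most closely over the 13 libraries included genes of mononuclear phagocytes. The 5 with the highest Pearson r were *Ctss* (cathepsin S, 0.93), *Slfn3* (0.91), *Plk2* (0.91), *Mpeg1* (perforin-2 of macrophages, 0.91) and *Iqsec2* (0.90), and Spearman's rho lay between 0.87 and 0.93. *Ptprc*, the leukocyte marker CD45, ranked 13th of all tested genes (r = 0.87, and 0.77 within groups), and the endothelial markers *Emcn* and *Pecam1* ranked 743rd (r = 0.61, and 0.18 within groups) and 1085th (r = 0.55, and 0.20 within groups). For the class I mean the 5 closest were *Vps25* (0.93), *H2-K2* (0.92), *Kctd17* (0.89), *Ino80b* (0.89) and the interferon-induced GTPase *Gbp2* (0.87). *H2-K2*, close to *H2-K1*, is annotated as noncoding (a transcribed pseudogene and a lncRNA). Shared words were counted for protein-coding transcripts only, so those between *H2-K2* and *H2-K1* are unknown. The part of shared reads in its r was not tested. For class I, *Emcn* ranked 150th (r = 0.75), *Pecam1* 703rd (r = 0.62) and *Ptprc* 738th (r = 0.62). These ranks describe 13 libraries, and *Ptprc*, *Emcn* and *Pecam1* were picked as markers after these values were seen. No r is given for the other antigen-presenting cell markers, among them the more abundant *Mrc1*, *Zbtb46* and *Lyz2*. The ranks therefore do not describe that list as a whole.

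Markers of antigen-presenting cells spanned a wide range of levels. The 3 most abundant, *Mrc1*, *Zbtb46* and *Lyz2*, had 73.3, 48.1 and 25.1 TPM at day 5, with differences from control of 0.07, 0.10 and 0.05 (limma adjusted p of 0.848, 0.466 and 0.944). *Ptprc* had 2.40 ± 0.98 TPM in control (SD, n = 5), 2.34 ± 0.70 at day 1 (n = 4) and 4.03 ± 0.97 at day 5 (n = 4), a difference of 0.71 at day 5 (limma adjusted p = 0.131). Of 22 markers of dendritic cells, macrophages and B cells, 12 were tested. At day 5, 0 of 12 were called (3.21% of all genes), 12 of 12 had differences above 0 (49.3% of all genes, median 0.27), and 3 of 12 were higher at an unadjusted p under 0.05 (11.0% of all genes). Their summed TPM overlapped between groups (139 to 199 in control, 167 to 189 at day 1 and 174 to 220 at day 5), and 0 of the 22 were listed at 0 in every library. Most of each sum came from *Mrc1*, *Zbtb46* and *Lyz2*, so the sums say little about low markers such as *Ptprc*. Whether these 3 transcripts came from antigen-presenting cells was not tested. The macrophage marker *Adgre1* (F4/80) was near 0, at 0.0323 to 0.210 TPM in control, 0.195 to 0.309 at day 1 and 0.211 to 1.60 at day 5. Of 9 T and NK cell markers, 2 were tested and 0 called, with summed TPM of 2.42 to 6.08 in control and 2.82 to 6.62 at day 5. At an unadjusted p under 0.05 the T and NK cell count was 0 of 2. *Ptprc* and *Adgre1* were chosen for display after their values were seen. The part of these cells in the class II values was not tested.

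The wider class II pathway was described by 18 further genes, of which 17 were in the table and 10 were tested. At day 5, 1 of the 10 was called (3.21% of all genes), the endosomal protease *Ctss*, which trims the invariant chain in antigen-presenting cells. *Ctss* had 3.87, 3.74, 4.08, 5.36 and 3.67 TPM in control libraries, 5.84, 3.26, 3.77 and 4.55 at day 1 and 5.53, 8.19, 8.46 and 5.81 at day 5. All 4 day 5 libraries lay above all control libraries, and *Ctss* rose by 0.71 (SE 0.18, limma adjusted p = 0.0293). This call is close to its threshold, since it held in only 7 of the 13 fits with 1 library left out.

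Of the 10 tested class II pathway genes, 8 had differences above 0 at day 5 (49.3% of all genes, median 0.14). *H2-Ea*, the alpha chain of the I-E molecule and partner of *H2-Eb1*, had 12.7 ± 3.19 TPM in control (SD, n = 5), 10.5 ± 2.02 at day 1 (n = 4) and 17.2 ± 3.65 at day 5 (n = 4). Its difference was 0.46 against control (limma adjusted p = 0.148) and 0.67 against day 1, where the MN groups did not overlap (adjusted p = 0.0745). As background, mice of the b haplotype do not make this chain and mice of the d haplotype do. The most abundant genes of the list were *Cd40* (75.7 TPM at day 5, a costimulatory receptor), *Lgmn* (77.5 TPM, an endosomal protease) and *Ifi30* (62.9 TPM, a lysosomal thiol reductase), with differences of 0.14, 0.24 and 0.14 and adjusted p of 0.595, 0.472 and 0.447. *H2-Ea* was chosen for display after its values were seen.

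**Figure D4:**
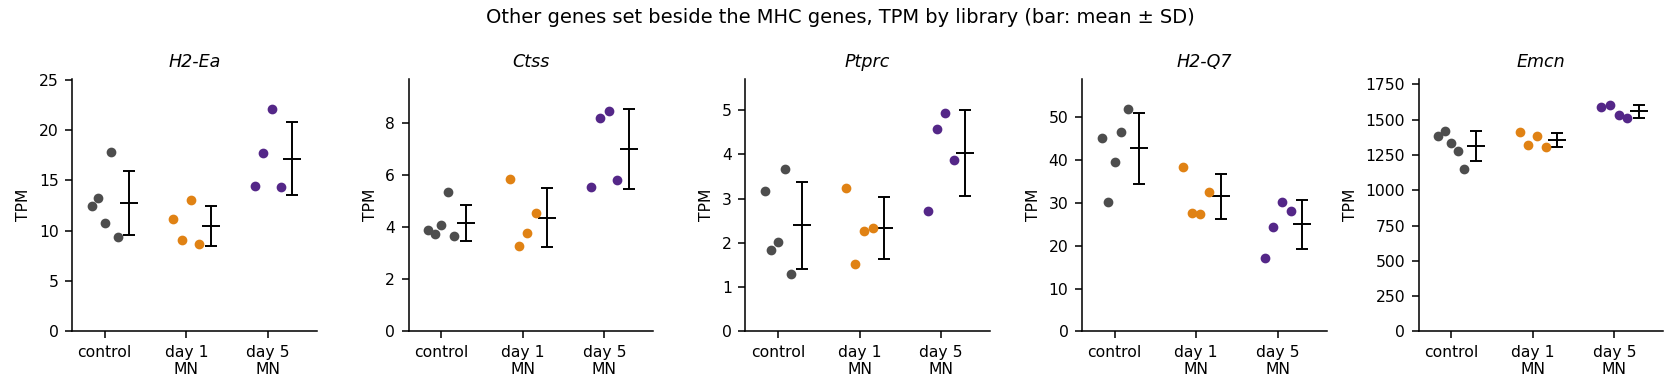
Deposited TPM (vertical axes, starting at 0) of *H2-Ea*, *Ctss*, *Ptprc*, *H2-Q7* and *Emcn* in each library, with mean ± SD per group. The day 5 MN points of *Ctss* lie above all control points and those of *H2-Q7* below them (17.1 to 30.3 against 30.3 to 51.9 TPM), and *Ptprc* and *H2-Ea* overlap with control.

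The nonclassical class I genes had differences on both sides of 0. Of 29 class Ib and class I-like genes, 26 were in the table and 19 were tested. At day 5, 10 of 19 had differences above 0 (49.3% of all genes) with a median of 0.02, and 1 of 19 was called (3.21% of all genes), *H2-Q7*, a Qa-2 gene. *H2-Q7* had 45.2, 30.3, 39.6, 46.6 and 51.9 TPM in control libraries, 38.5, 27.6, 27.4 and 32.6 at day 1 and 17.1, 24.4, 30.3 and 28.2 at day 5. The highest day 5 library (30.28 TPM) lay just below the lowest control library (30.32 TPM), and day 1 libraries overlapped with both groups. *H2-Q7* fell by 0.74 on the log2 scale at day 5 (SE 0.18, limma adjusted p = 0.0249), and its difference was -0.38 at day 1 (adjusted p = 0.401).

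The sign of *H2-Q7* was opposite to the estimates for *H2-K1* and *H2-D1*, which were not called, and the difference between these genes was not tested. Its promoter window is shown to set beside theirs. It held the same NF-kB site, interferon response sequence and CCAATCAG letters. The window had 2 exact matches on GRCm39, and the one nearest the annotated gene is given.
H2-Q7 (chr17:35657881-35658180, plus strand): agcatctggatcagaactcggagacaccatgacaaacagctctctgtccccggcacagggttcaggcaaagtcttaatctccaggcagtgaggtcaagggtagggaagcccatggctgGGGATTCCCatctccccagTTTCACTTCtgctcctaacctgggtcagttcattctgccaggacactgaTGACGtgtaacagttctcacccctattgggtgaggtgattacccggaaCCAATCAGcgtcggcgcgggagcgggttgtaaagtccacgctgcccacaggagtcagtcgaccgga

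Of the 31-base words of *H2-Q7*, 38.6% occurred in other protein-coding genes, 27.0% in *H2-Q6*, so its level depends on how the quantifier divided reads between them. The *H2-Q7* call held in 8 of 13 fits that left out 1 library each. *H2-Q6* had a difference of 0.10 at day 5 (limma adjusted p = 0.845). The most abundant genes of the list, *H2-T23* (Qa-1, 207 TPM at day 5), *Fcgrt* (the neonatal Fc receptor that recycles IgG, 125 TPM) and *H2-T24* (101 TPM), had differences of -0.02, 0.19 and 0.24 with adjusted p of 0.952, 0.377 and 0.327. *H2-M10.1* was listed at 0 in all libraries.

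The genes that supply class I with peptides had differences near 0 at day 5. Of 12 such genes (immunoproteasome subunits, *Tap2*, chaperones of the loading complex and the class I coactivator *Nlrc5* among them), all were tested and 0 were called in the 3 contrasts. At day 5, 5 of 12 had differences above 0 (49.3% of all genes), with a median of -0.02 (range -0.20 to 0.12), and 0 of 12 had an unadjusted p under 0.05. The immunoproteasome subunits *Psmb8* and *Psmb9* had differences of 0.00 and -0.01 and *Nlrc5* of 0.04 (limma adjusted p of 0.993, 0.982 and 0.954). The 3 most abundant, *Calr*, *Pdia3* and *Canx*, had 814, 444 and 229 TPM at day 5, with differences of -0.02, 0.12 and 0.07 and adjusted p of 0.967, 0.709 and 0.785. *Psmb8*, *Psmb9* and *Nlrc5* were chosen for display after their values were seen.

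On the input side, the interferon gamma transcript *Ifng* was listed at 0 in all 13 libraries. Of 10 genes from the ligand to its nuclear effectors, 9 were tested and 0 were called (3.21% of all genes were at day 5). At day 5, 3 of 9 had an unadjusted p under 0.05, of which 2 were higher. Of all genes, 11.0% were higher at that level. There, 6 of 9 had differences above 0 (49.3% of all genes), with a median of 0.14. Among the most abundant were *Jak1* (the receptor kinase, 121 TPM at day 5) and *Ifngr1* (the receptor chain, 81.4 TPM), with differences of -0.13 and 0.05 and limma adjusted p of 0.137 and 0.873.

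**Figure D5:**
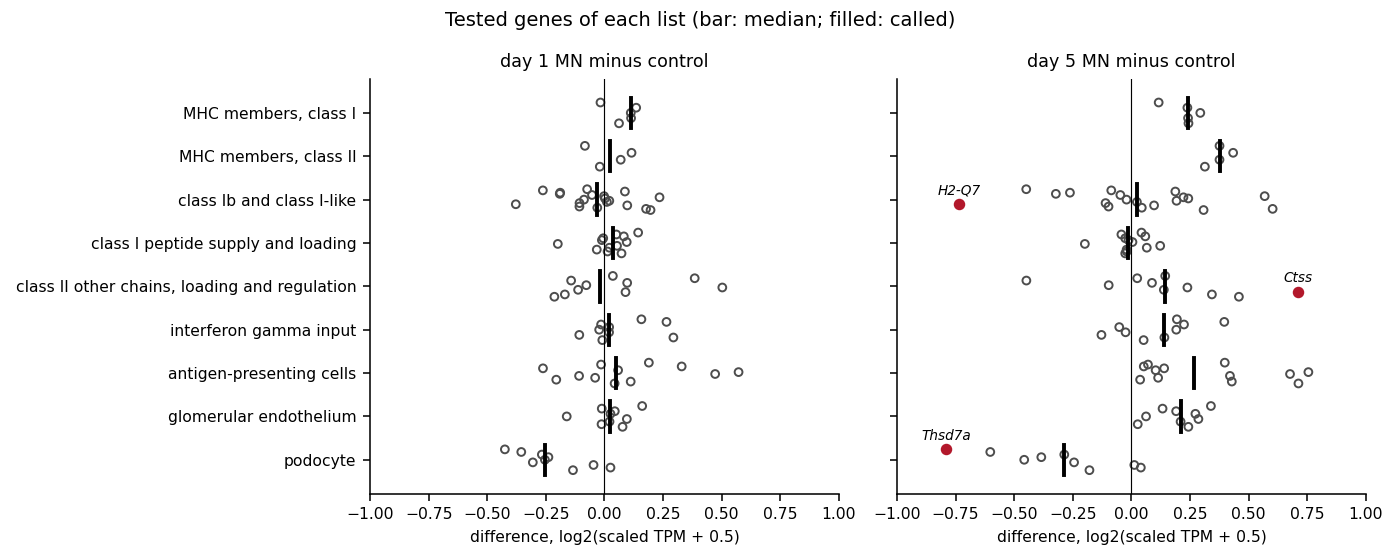
Differences from control at day 1 (left) and day 5 (right) on the log2(scaled TPM + 0.5) scale for the tested genes of each list; each circle is a gene, bars mark medians and filled circles mark called genes. At day 5 the medians are 0.24 and 0.38 for the class I and class II MHC genes, 0.02 for class Ib genes and -0.02 for class I peptide supply genes, and *H2-Q7*, *Ctss* and *Thsd7a* are the called genes.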

How the data were processed

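RNA of glomeruli from 13 mice was sequenced (5 control, 4 day 1 MN, 4 day 5 MN). The authors trimmed reads with Trimmomatic 0.39, quantified them with kallisto 0.46.2 against GRCm39 and deposited TPM, 1 value per gene symbol and library. TPM keep no read depth, so none could be given. Groups come from the sample labels. Here each library was scaled by its median of ratios to the geometric mean, taken over the 15772 genes that no library listed at 0, and values were analysed as log2(scaled TPM + 0.5). A filter kept 14322 of 35967 genes (4 or more libraries with a TPM of 1 or higher), and 1 limma fit (version 3.58.1, R 4.3.3, eBayes with trend) covered all 3 groups. P-values were adjusted per contrast (Benjamini-Hochberg). Calls needed an adjusted p under 0.05 and an absolute log2 difference above 0.5. *Ciita*, below the filter, was tested by exact two-sided permutation in Python 3.11.15 with scipy 1.17.1. In simulated data of the same size with 200 changed genes, 172 were called for day 5 minus control, and so were 5 unchanged ones. The MHC differences at day 5 (0.12 to 0.43) lie under the 0.5 that a call needs. How often differences of that size would be detected was not tested.

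The members and gene lists were chosen with earlier results of these data known. From the other lists, genes called in any contrast, the 3 most abundant and those listed at 0 in every library are named, and likeness is given for the 5 genes with the highest r. A few genes that the rule covers are left out. Markers are summarised by counts and by sums of deposited, not scaled, TPM. Alternatives covered pseudocounts, scaling, filters, the trend, library weights, which groups were fitted, a block for replicate numbers, the call rule and leaving out each library. Replicate numbers label different animals. A promoter was matched to GRCm39 as a whole window.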

Additional observations from a re-analysis of the deposited data

Results flagged for a closer look

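Among 30 sets of values examined, each of the 10 MHC genes in each of the 3 groups, 1 held a library far from the others of its group. *Cd74* was 34.8 TPM in day 1 MN replicate 1 against 23.9 to 25.8 TPM in the other 3 day 1 libraries. Its gap to the next library took up more of the group's range than Dixon's limit for 4 samples allows, which chance alone gives in about 1 of 20 groups. The same library had the highest day 1 values of *H2-Ab1* (23.9 TPM) and *Ctss* (5.84 TPM).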

How the results depend on the processing

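In all 3 contrasts the count of MHC genes called stayed at 0 under every alternative except leave-one-out fits of day 5 against day 1, where it ranged from 0 to 1 (*Cd74*, without day 1 MN replicate 1). All 9 differences from control at day 5, and all 9 between the days, stayed above 0 across 24 fits, the reported one included. At day 1, where values were near 0, leaving out 1 library turned the sign of *H2-K1* (range -0.0647 to 0.145), *H2-Ab1* (-0.0846 to 0.188), *H2-Eb1* (-0.0032 to 0.227), *H2-Aa* (-0.128 to 0.0836), *Tapbp* (-0.0365 to 0.0068) and *Ctss* (-0.0494 to 0.197). At day 5, leaving out day 1 replicate 4 took the limma adjusted p of *B2m* to 0.0357 and of *H2-D1* to 0.0373. With only control and day 5 libraries in the fit they were 0.0407 and 0.0466. Day 1 libraries enter this contrast only through the shared estimate of spread. The differences stayed under 0.5 in each of these fits.

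The day 5 call of *H2-Q7* was lost without the filter (adjusted p = 0.0524) and without control replicates 1, 4 or 5 or day 5 replicates 1 or 2 (differences -0.74 to -0.59). That of *Ctss* was lost without the filter (adjusted p = 0.0602) and without control replicates 1, 2, 3 or 5 or day 5 replicates 2 or 3 (0.62 to 0.71). The cause was not tested.

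Over all genes, calls at day 1 (13) came to 6 with no filter, 7 without the trend, 2 with only the compared groups and 3 to 218 on leaving out 1 library, 218 without control replicate 5. Calls at day 5 (460) came to 876 by adjusted p alone. Calls between the days (259) came to 153 when all libraries had to reach a TPM of 1, 414 with only the compared groups and 150 to 437 on leaving out 1 library. With the replicate number as a block, calls were 149 at day 1, 348 at day 5 and 331 between the days, with 0 MHC genes, *Tapbp* at day 1 was 0.0009, and *H2-Q7* (adjusted p = 0.0866) and *Ctss* (0.128) at day 5 were not called. Only the control group had a replicate 5, so the block also took control replicate 5 out of the comparisons. Same-numbered libraries did not deviate together over all tested genes (r from -0.06 to 0.09). The labels name no pairing of animals, and this check cannot exclude one.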

Other observations

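*H2-T3*, a class Ib gene (the thymus leukemia antigen), was listed at 7.17 TPM in day 1 MN replicate 1 and at 0 to 0.378 TPM in the other 12 libraries. It did not pass the filter on low values and was picked after its values were seen. The same library was the highest day 1 library for *H2-K1*, *H2-D1* and *B2m* (317, 410 and 1600 TPM).

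*Procr*, the class I-like endothelial protein C receptor, had 32.5 to 53.8 TPM in control and 26.3 to 34.3 TPM at day 5 libraries. The difference was -0.45 (limma, adjusted p = 0.0475), short of the size needed for a call, and it was picked after its values were seen.

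*Emcn*, the endothelial sialomucin endomucin, had 1151 to 1419 TPM in control and 1510 to 1604 TPM at day 5 libraries, with no overlap. The difference was 0.29 (limma, adjusted p = 0.0127), close in size to that of *B2m* in the same libraries. *Ehd3* and *Kdr*, the other most abundant endothelial markers, had differences of 0.06 and 0.03 (limma adjusted p of 0.801 and 0.909). Of the endothelial markers, 9 of 9 had differences above 0, with a median of 0.21.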
